A study of Mus musculus with 6 samples.

Results

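The 33 genes described here encode enzymes and regulators of cholesterol and fatty acid synthesis, and they were picked by symbol from the 23412 rows of a count table of mouse germinal centre B cells. They fall into 18 enzymes of sterol synthesis, 6 genes that sense or move sterols and set the activity of the pathway, and 9 enzymes of fatty acid synthesis. All 33 had a row (32 by symbol, and Msmo1 under its older symbol Sc4mol), and all 33 passed the filter on low counts. RNA came from splenic B cells sorted as B220+, GL7+ and Fas+ on day 10 after mice were given sheep red blood cells into the peritoneum. DAF-TM mice had the genotype Cg1-cre(+/-);R26-DAF-TM(fl/fl): besides the Cre allele, which acts in germinal centre B cells, they carried floxed DAF-TM at the Rosa26 locus. DAF, encoded by Cd55, is a membrane protein that restrains complement. Control mice carried Cg1-cre(+/-) without the transgene, so both groups shared the Cre allele. The labels give no age, sex or strain and do not say whether mice were pooled. The p-values and intervals therefore measure a spread between libraries, pooled mainly over genes, that may be technical.

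Cholesterol is built from acetyl-CoA through mevalonate, isoprenoid diphosphates, squalene and lanosterol. Most genes of this route are switched on together by the transcription factor SREBP-2 (Srebf2), which leaves the endoplasmic reticulum with its escort SCAP when membrane sterol is low and is held back by INSIG proteins when sterol is plentiful. The related factor SREBP-1 (Srebf1) acts more on fatty acid synthesis, and dividing lymphocytes need both products for new membrane.

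Each group had 3 libraries in the labels. The values of DAF-TM replicate 3 were identical to those of replicate 2 in each of the 23412 rows, and the pair was counted as 1 sample. The comparison therefore used 2 DAF-TM libraries (11280400 and 10684753 counts) and 3 control libraries (7257339 to 12783965 counts). Values are counts scaled to a common library size (TMM-normalised CPM), given for DAF-TM libraries 1 and 2 and for control libraries 1 to 3 in that order. Cd55 stood at 712 and 725 CPM in the DAF-TM libraries, against 28.7, 34.3 and 23.4 CPM in the control libraries (log2 fold change 4.63, edgeR adjusted p = 3.61e-110). The B cell marker Cd79a (1198 to 1434 CPM) and the germinal centre marker Bcl6 (214 to 312 CPM) were present in all 5 libraries. DAF-TM library 1 stood apart in holding both Xist (296 CPM) and transcripts of 4 Y-linked genes (289 CPM in sum). DAF-TM library 2 and control library 1 held Xist (719 and 758 CPM) with at most 0.106 CPM of the Y-linked genes, and control libraries 2 and 3 held the Y-linked genes (707 and 477 CPM) with at most 2.86 CPM of Xist. The mix of these transcripts differed between the groups, and its part in the results was not tested. Among the members, Ebp and Nsdhl are on the X chromosome.

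None of the 33 genes passed the test between DAF-TM and control cells (edgeR quasi-likelihood test, Benjamini-Hochberg adjusted p under 0.05 over 18767 genes), where 0.41% of all genes tested did (0.373% higher and 0.0373% lower). The lowest adjusted p among them was 0.0883, for Insig1. On simulated data the test called 18% of genes changed 1.5-fold and 78% of those changed 2-fold. The simulation gave each gene the spread usual at its level and no mix of sexes or cell types. These shares may therefore be too high for the real libraries. The fold of Insig1, the largest change of the 33, was 0.658, so the absence of calls does not show an absence of change. At an unadjusted p under 0.05 there were 9, all lower in DAF-TM cells: 7 sterol synthesis enzymes (Hmgcs1, Idi1, Fdft1, Sqle, Cyp51, Msmo1 and Sc5d) and the sensing genes Insig1 and Stard4. Across all genes tested, 2.06% were lower at that level and 3.68% higher, and 3.56% of genes of similar level to the members were lower. DESeq2 and limma-voom also called 0 of the 33, with 6 and 8 at an unadjusted p under 0.05. Over all 18767 genes tested, 716 and 1108 reached that level in either direction with these methods, against 1078 with edgeR. The log2 fold change was below 0 for 29 of the 33, against 46.1% of all genes tested and 64.5% of genes of similar level. For the sterol synthesis enzymes alone 16 of 18 lay below 0 and 7 of 18 were lower at an unadjusted p under 0.05, against 66.2% and 3.73% of genes of similar level to them. Members are regulated together and are not independent of each other, so these counts describe the set and carry no test.

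The comparison with genes of similar level was needed because the fold changes of all genes tilted with level: over 50 bins of level, the median log2 fold change was 0.12 to 0.29 in the 5 lowest bins and -0.16 in the highest. The 18 sterol synthesis genes had a median log2 fold change of -0.23, against -0.07 for 4853 genes of similar level and 0.03 for all genes tested. After each gene's level median was subtracted, the sterol synthesis median was -0.19 and 15 of 18 genes lay below their level. The 6 sensing genes had a median of -0.20, which was -0.08 after that subtraction. The 9 fatty acid synthesis genes had a median of -0.12, and 0.01 relative to genes of similar level, with 4 of 9 below it. Without control library 2 the order of these medians turned, with -0.121 for sterol synthesis and -0.178 for fatty acid synthesis relative to genes of similar level. The difference between the arms was not tested.

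**Figure D1:**
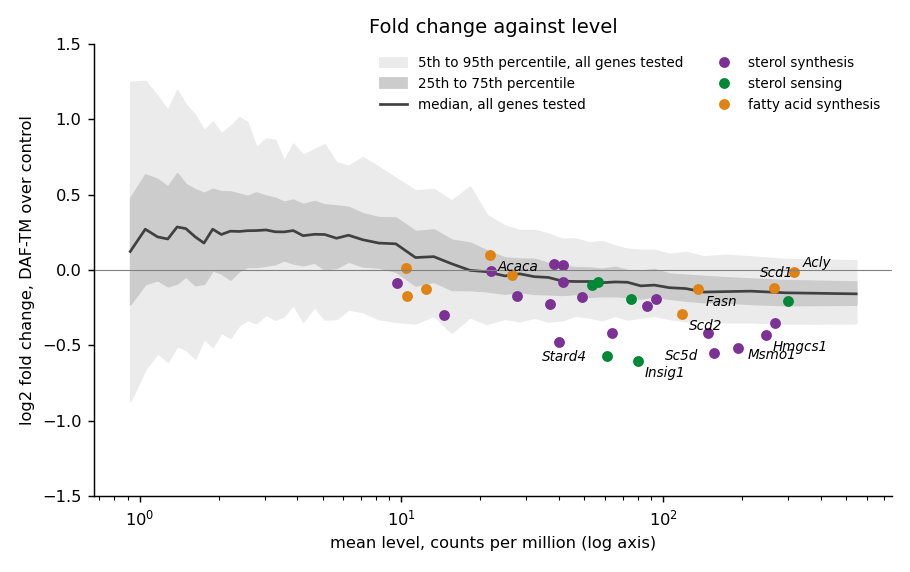
Log2 fold change of DAF-TM over control (vertical axis) against mean level in CPM (log axis), with bands and a line for all 18767 genes tested in 50 bins of level and points for the 33 members. Insig1, Stard4, Sc5d and Msmo1 lie lowest, between -0.60 and -0.52, while Acly, Fasn and Scd1 lie within 0.14 of the line.

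In the early steps of the pathway, the genes varied in how far the groups differed. Hmgcs1, the synthase that joins acetyl-CoA to acetoacetyl-CoA, stood at 245 and 165 CPM in DAF-TM cells, against 277, 340 and 209 CPM in control cells (205 ± 57.1 against 275 ± 65.3 CPM, SD, n = 2 and 3). DAF-TM library 1 lay inside the control range and library 2 below it (log2 fold change -0.43, 95% interval -0.76 to -0.10, adjusted p = 0.639). That value was -0.75 with DAF-TM library 1 left out, -0.17 with DAF-TM library 2 left out and -0.25 with control library 2 left out. Acat2, the cytosolic thiolase that makes acetoacetyl-CoA, was at 78.9 and 77.3 CPM in DAF-TM cells, against 100, 95.5 and 79.95 CPM in control cells. Those groups did not overlap, though control library 3 lay close to both DAF-TM values (log2 fold change -0.24, adjusted p = 0.945). The 3 enzymes that turn mevalonate into isopentenyl diphosphate followed. Mvk, Pmvk and Mvd, which add the phosphates and then remove carbon dioxide, had log2 fold changes of -0.30 (95% interval -0.76 to 0.16), 0.04 (-0.31 to 0.38) and -0.004 (-0.40 to 0.39). Mvd in particular held between 21.2 and 22.4 CPM in all 5 libraries.

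Idi1, which interconverts the isoprenoid building blocks, was at 36.4 and 28.4 CPM in DAF-TM cells, against 43.6, 58.8 and 32.4 CPM in control cells (log2 fold change -0.48, 95% interval -0.83 to -0.13, adjusted p = 0.539). Control library 3 lay between the DAF-TM libraries, so the groups overlapped. Fdps, which makes farnesyl diphosphate, had a log2 fold change of -0.19 and Fdft1, the squalene synthase, one of -0.42 (95% interval -0.75 to -0.08, adjusted p = 0.710). The groups overlapped for both genes, and the value of Fdft1 ranged from -0.73 with DAF-TM library 1 left out to -0.17 with DAF-TM library 2 left out. Leaving out control library 2 gave -0.26 for Fdft1 and -0.24 for Idi1. Sqle, the squalene epoxidase and an oxygen-dependent step, stood at 134 and 114 CPM in DAF-TM cells, against 146, 202 and 150 CPM in control cells. Both DAF-TM values were below every control library (log2 fold change -0.42, 95% interval -0.74 to -0.09, adjusted p = 0.685), and the fold change was -0.25 without control library 2.

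Among the enzymes that carry lanosterol to cholesterol, Sc5d, Msmo1 and Cyp51 had the most negative fold changes. Sc5d, the lathosterol desaturase, was at 133 and 111 CPM in DAF-TM cells, against 158, 235 and 140 CPM in control cells. Its groups did not overlap (log2 fold change -0.55, 95% interval -0.88 to -0.22, adjusted p = 0.187). Msmo1, the methyl sterol oxidase, was at 167 and 140 CPM in DAF-TM cells, against 200, 306 and 155 CPM in control cells. The control libraries alone spanned 1.97-fold, and DAF-TM library 1 lay among them (log2 fold change -0.52, 95% interval -0.86 to -0.18, adjusted p = 0.334). Cyp51, the lanosterol demethylase, was at 254 and 205 CPM in DAF-TM cells, against 244, 396 and 238 CPM in control cells (log2 fold change -0.35, adjusted p = 0.833). Control library 2 was the highest for all 3 genes, and without it the log2 fold changes were -0.30 for Sc5d, -0.21 for Msmo1 and -0.07 for Cyp51. The cyclase Lss and the later enzymes Tm7sf2, Nsdhl, Hsd17b7, Ebp and Dhcr7, which reduce, demethylate or isomerise sterols, had log2 fold changes between -0.23 and 0.04 with adjusted p from 0.945 to 0.985, and all of them overlapped between the groups.

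**Figure D2:**
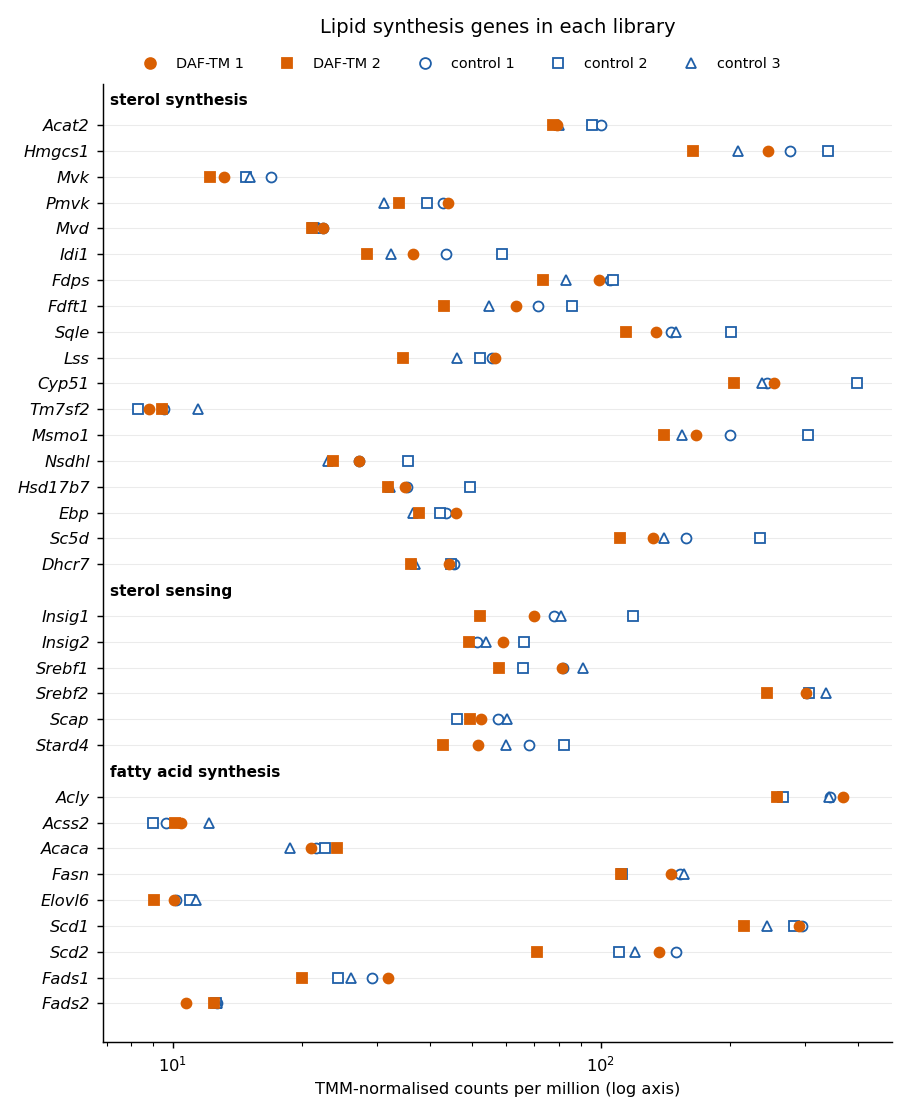
TMM-normalised CPM (log axis) of each of the 33 genes, with filled points for the 2 DAF-TM libraries and open points for the 3 control libraries. Control library 2 is the highest point for 10 of 18 sterol synthesis genes and DAF-TM library 2 the lowest for 14.

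The sensing genes split into those that were close between the groups and a pair that were not. Srebf2 itself was at 302 and 245 CPM in DAF-TM cells, against 303, 307 and 336 CPM in control cells. DAF-TM library 1 lay just under the lowest control library, so the absence of overlap rests on a small margin (log2 fold change -0.21, 95% interval -0.54 to 0.12, adjusted p = 0.947). Srebf1 was at 81.1 and 57.9 CPM in DAF-TM cells, against 81.8, 66.0 and 90.9 CPM in control cells, with overlap (log2 fold change -0.19, 95% interval -0.52 to 0.14). Scap was at 52.6 and 49.4 CPM in DAF-TM cells, against 57.4, 46.1 and 60.5 CPM in control cells, also with overlap (log2 fold change -0.10, 95% interval -0.43 to 0.24). Insig2, the other INSIG gene, had a log2 fold change of -0.08 (95% interval -0.41 to 0.25), and its groups overlapped.

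Insig1 (chr5:28071363-28078662, plus strand, GRCm38 in GENCODE M21), whose product retains SCAP in the endoplasmic reticulum and which is itself an SREBP target, was at 69.7 and 52.2 CPM in DAF-TM cells, against 77.7, 119 and 80.6 CPM in control cells. Both DAF-TM libraries were below all 3 controls (log2 fold change -0.60, 95% interval -0.94 to -0.27, unadjusted p = 0.000428, adjusted p = 0.0883). It had the largest fold change of the 33 genes, and it did not pass. Stard4, a carrier that moves sterol between membranes and another SREBP target, was at 51.8 and 42.9 CPM in DAF-TM cells, against 68.0, 82.1 and 59.9 CPM in control cells. Its groups did not overlap either (log2 fold change -0.57, 95% interval -0.91 to -0.23, adjusted p = 0.162). The fold changes of Insig1 and Stard4 were negative in all 5 fits that left out 1 library, from -0.83 to -0.38 for Insig1 and from -0.72 to -0.44 for Stard4.

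The fatty acid enzymes lay on both sides of genes of similar level. Fasn, the fatty acid synthase, was at 146 and 111 CPM in DAF-TM cells, against 153, 112 and 157 CPM in control cells. DAF-TM library 2 and control library 2 had nearly the same low value (log2 fold change -0.13, 95% interval -0.46 to 0.20, adjusted p = 0.956). Acaca, the carboxylase that makes malonyl-CoA, was at 21.0 and 24.2 CPM in DAF-TM cells, against 21.6, 22.6 and 18.8 CPM in control cells (log2 fold change 0.10, 95% interval -0.29 to 0.49). Acly and Acss2, which supply acetyl-CoA from citrate and from acetate, had log2 fold changes of -0.02 and 0.01. Their 95% intervals ran from -0.34 to 0.31 for Acly and from -0.52 to 0.55 for Acss2.

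Scd1, a desaturase that makes oleic acid, was at 291 and 216 CPM in DAF-TM cells, against 296, 283 and 245 CPM in control cells (log2 fold change -0.12, 95% interval -0.44 to 0.21). Scd2, a close relative that carries out the same reaction, was at 137 and 70.9 CPM in DAF-TM cells, against 150.3, 110.1 and 120 CPM in control cells. DAF-TM library 2 was the lowest of the 5, and the log2 fold change (-0.29, 95% interval -0.63 to 0.05, adjusted p = 0.931) was 0.11 without that library and -0.85 without DAF-TM library 1 (adjusted p = 0.195). Reads shared by Scd1 and Scd2 may have been split between them, since the treatment of such reads is not given in the sources used here. Fads1, Fads2 and Elovl6, which desaturate or lengthen fatty acids, had log2 fold changes of -0.03, -0.13 and -0.18. Of the 9 fatty acid genes, 0 had an unadjusted p under 0.05.

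**Figure D3:**
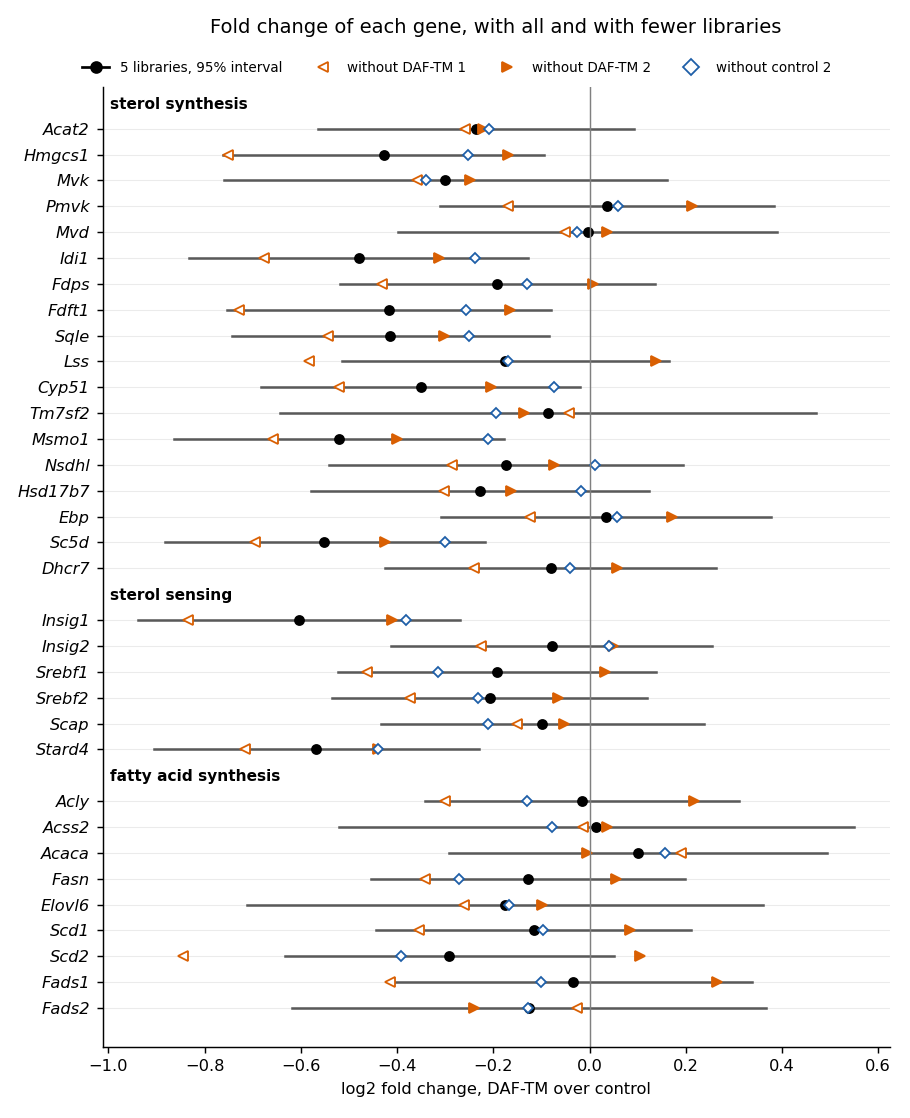
Log2 fold change of DAF-TM over control for each gene, with its 95% interval from the edgeR fit of 5 libraries, and the value after leaving out DAF-TM library 1, DAF-TM library 2 or control library 2. Insig1, Stard4, Sc5d and Msmo1 lie closer to 0 without control library 2 or DAF-TM library 2, and the intervals of all 9 fatty acid genes span 0.

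Single libraries stood out in the sterol values. The 18 enzymes summed to 1509 and 1197 CPM in DAF-TM cells, against 1644, 2132 and 1397 CPM in control cells, so DAF-TM library 1 lay above control library 3. The 9 fatty acid genes summed to 1026 and 732 CPM in DAF-TM cells, against 1025, 852 and 945 CPM in control cells. The ratio of the sums, which does not depend on library scaling, was 1.47 and 1.63 in DAF-TM cells, against 1.6, 2.5 and 1.48 in control cells. Control library 2 stood apart in this ratio, and the other 4 libraries lay within 1.47 to 1.63. DAF-TM library 2 was the lowest of the 5 for 25 of the 33 genes (75.8%), and also for 42.9% of genes of similar level. Control library 2 was the highest for 13 of the 33 (39.4%) and for 42.3% of genes of similar level. The arms differed in this, with 10 of 18 sterol synthesis genes (55.6%), 3 of 6 sensing genes and 0 of 9 fatty acid genes highest there. Without control library 2, the number of sterol synthesis genes lower at an unadjusted p under 0.05 (edgeR) was 1 in place of 7. Over all genes tested, 757 of 18310 reached that level in either direction, against 1078 of 18767 in the main fit. The fits that left out control libraries 1 and 3 gave 5 and 7, where 747 of 18515 and 1245 of 18424 genes tested did so. Of the 33 members 0 passed in these fits. In the fits without a DAF-TM library that group had 1 library, which was assumed to vary like the control libraries. The sterol synthesis median log2 fold change was -0.395 without DAF-TM library 1 and -0.164 without DAF-TM library 2. In those fits 18 and 12 of the 18 genes lay below 0.

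**Figure D4:**
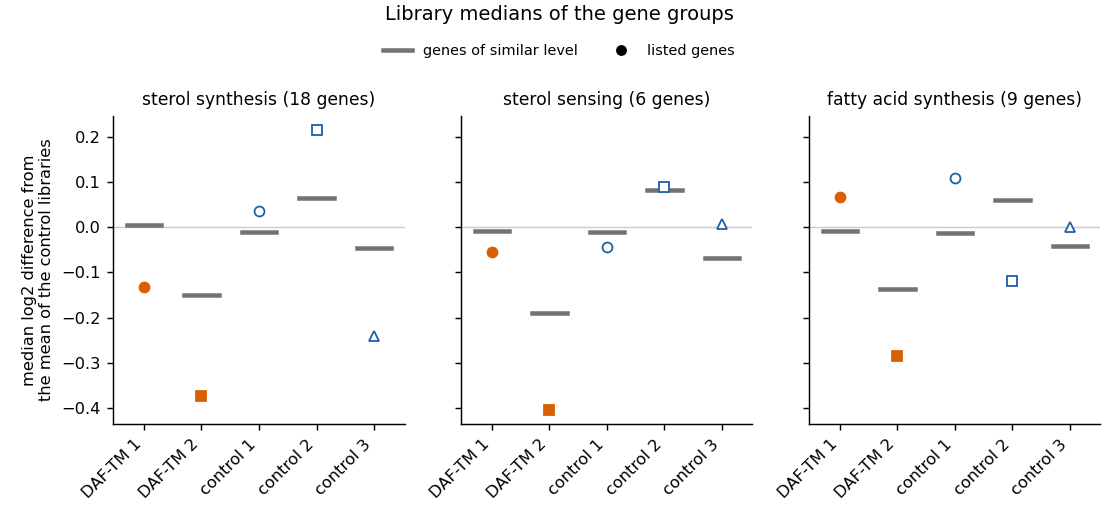
Median log2 difference from the mean of the control libraries for each gene group in each library (points) and for genes of similar level (grey dashes), with the DAF-TM libraries on the left. The sterol synthesis medians were -0.13 and -0.37 in DAF-TM libraries 1 and 2, against 0.04, 0.22 and -0.24 in control libraries 1 to 3, so control library 3 lay below DAF-TM library 1.

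The libraries of the groups did not overlap, with DAF-TM lower, for 9 of the 33 genes (27.3%), where 9.02% of all genes tested and 14.5% of genes of similar level did so. These were Acat2, Mvk, Sqle, Sc5d, Insig1, Srebf2, Stard4, Elovl6 and Fads2. The 2 arms had equal shares, with 4 of 18 sterol synthesis and 2 of 9 fatty acid genes (22.2% each). Among genes of similar level the shares were 15.5% and 14.7%. The sensing genes gave 3 of 6, against 19.5% at similar level. Both fatty acid margins were small. Fads2 was at 12.50 CPM in DAF-TM library 2 and 12.63 CPM in control library 2. Elovl6 was at 10.09 CPM in DAF-TM library 1 and 10.15 CPM in control library 1. For 0 of the 33 were both DAF-TM libraries above every control, against 11.3% of all genes tested and 5.71% of genes of similar level. For genes such as Msmo1 and Cyp51 the spread among controls (220 ± 77.4 and 293 ± 89.4 CPM, SD, n = 3) was wider than among the DAF-TM libraries (154 ± 18.9 and 230 ± 34.9 CPM, SD, n = 2). The edgeR fit had 3 residual degrees of freedom and a median of 1139 prior ones, so its p-values rest mainly on the spread pooled over genes.

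Per kilobase of annotated exon, the most abundant members in DAF-TM cells were Acly (59.4 CPM per kb), Cyp51 (52.0), Scd1 (51.8), Hmgcs1 (44.6) and Srebf2 (38.0). The same 5 genes led in control cells, at 60.1 for Acly, 66.3 for Cyp51, 56.1 for Scd1, 59.9 for Hmgcs1 and 43.9 for Srebf2. Acss2 (1.01), Acaca (1.32) and Elovl6 (1.49) were at the low end in DAF-TM cells, and again in control cells at 1.01, 1.23 and 1.68. Exon lengths join all annotated isoforms, so the order is approximate for genes with many isoforms such as Acaca. On the same scale of CPM per kb Srebf2 exceeded Srebf1 (12.3 in DAF-TM and 14.1 in control cells).

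Promoter windows from RefSeq (GRCm38.p6, from 250 bases before to 50 after a start) were matched to 26 of the 33 members, leaving Fdps, Fdft1, Sqle, Stard4, Scd1, Scd2 and Fads1 without one. The windows of 4 sterol genes with negative fold changes and of Fasn, whose groups were close, are shown because the same factors are known to act on both arms. Each is printed 5′ to 3′ in the direction of the gene, with capitals for the sterol regulatory element TCACNCCAC and for the CCAAT box, whose reverse complement is ATTGG.
Hmgcs1, chr13:119690101-119690400, plus strand: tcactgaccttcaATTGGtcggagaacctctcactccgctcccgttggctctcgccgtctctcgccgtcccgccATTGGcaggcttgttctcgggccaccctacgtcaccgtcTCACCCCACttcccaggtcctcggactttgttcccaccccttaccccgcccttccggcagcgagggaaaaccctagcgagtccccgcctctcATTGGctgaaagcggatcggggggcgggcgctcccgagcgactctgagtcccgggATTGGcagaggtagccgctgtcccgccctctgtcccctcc
Insig1, chr5:28071162-28071461, plus strand: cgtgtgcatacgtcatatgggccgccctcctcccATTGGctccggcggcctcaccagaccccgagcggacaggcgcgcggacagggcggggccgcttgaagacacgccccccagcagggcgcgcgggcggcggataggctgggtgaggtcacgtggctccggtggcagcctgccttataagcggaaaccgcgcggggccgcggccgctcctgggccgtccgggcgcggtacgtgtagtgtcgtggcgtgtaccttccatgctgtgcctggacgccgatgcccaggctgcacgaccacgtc
Sc5d, chr9:42264251-42264550, minus strand: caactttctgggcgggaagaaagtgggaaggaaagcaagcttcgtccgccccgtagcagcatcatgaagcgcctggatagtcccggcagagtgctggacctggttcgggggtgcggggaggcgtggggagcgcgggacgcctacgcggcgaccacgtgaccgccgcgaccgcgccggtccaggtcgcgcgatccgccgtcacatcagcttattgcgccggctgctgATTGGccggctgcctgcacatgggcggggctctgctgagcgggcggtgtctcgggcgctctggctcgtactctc
Msmo1, chr8:64733529-64733828, minus strand: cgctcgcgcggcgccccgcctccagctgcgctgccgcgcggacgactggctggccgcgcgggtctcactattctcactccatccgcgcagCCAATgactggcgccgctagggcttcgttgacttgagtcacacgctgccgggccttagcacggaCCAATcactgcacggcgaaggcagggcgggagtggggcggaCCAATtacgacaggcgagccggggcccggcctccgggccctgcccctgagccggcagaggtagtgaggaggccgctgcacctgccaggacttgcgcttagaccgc
Fasn, chr11:120824498-120824797, minus strand: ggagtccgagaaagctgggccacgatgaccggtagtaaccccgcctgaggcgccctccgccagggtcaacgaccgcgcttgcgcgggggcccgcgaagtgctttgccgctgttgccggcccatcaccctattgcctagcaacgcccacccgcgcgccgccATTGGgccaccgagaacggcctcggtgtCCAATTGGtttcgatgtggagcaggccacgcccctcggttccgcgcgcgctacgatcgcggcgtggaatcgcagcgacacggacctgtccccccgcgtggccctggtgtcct

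Hmgcs1 held the sterol regulatory element TCACNCCAC at position -137 from its start, and it was the 1 gene of the 26 with a match on either strand, against 1.44% of all genes with a window and 1.41% of those in the level range. A CCAAT box, the letters CCAAT bound by NF-Y, a factor known to work beside SREBP, was found on either strand in at least 1 window of 14 of 15 sterol synthesis genes, 4 of 5 sensing genes and 3 of 6 fatty acid genes. Among all genes with a window the share was 41.1%, and among tested genes in the level range of the members it was 43.7%. Genes with several windows have more chances of a match to any motif. Counted by window, the CCAAT box was in 14 of 18 sterol synthesis, 5 of 10 sensing and 3 of 6 fatty acid windows. In the level range that share was 38.4% of windows. The GC box GGGCGG, a site for SP1, was found in 14 of 15 sterol synthesis genes, 5 of 5 sensing genes and 3 of 6 fatty acid genes, against 38.2% of all genes and 71.1% of those in the level range. The E-box CACGTG was found in 3 of 15, 2 of 5 and 0 of 6, against 8.09% of all genes and 12.2% of those in the level range. Motifs may overlap, as the CCAAT boxes of Fasn do, and a match of letters is a description of the window. A missing match says only that these letters are not in it.

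The other lipid lists gave 0 calls in either direction, and their medians are followed by the median relative to genes of similar level. Of 12 genes that process or turn over SREBP and its partners the median log2 fold change was -0.17 (relative to level -0.07), with Rnf145, a sterol-responsive ubiquitin ligase, lowest in p (log2 fold change -0.30, adjusted p = 0.909). Of 14 genes of LXR signalling and sterol export, storage or oxidation the median was 0.09 (relative to level 0.05). Abca1, a cholesterol exporter that LXR induces, was at 38.5 and 34.9 CPM in DAF-TM cells, against 40.0, 55.5 and 46.6 CPM in control cells (log2 fold change -0.37, adjusted p = 0.829). Abcg1 of the same list lay the other way (log2 fold change 0.39, adjusted p = 0.937), and 8 of the 14 genes had log2 fold changes above 0. Of 15 genes of non-sterol isoprenoids the median was -0.12 (relative to level -0.10), with Zmpste24, which trims prenylated lamin A, at -0.36 (adjusted p = 0.816). The 19 genes of fatty acid elongation, activation and glycerolipids had a median of -0.04 (relative to level -0.06), with Acsl3 and Acsl4, which activate long-chain fatty acids, at -0.28 and -0.27 (adjusted p = 0.944 each). The 20 genes of fatty acid oxidation had a median of -0.10 (relative to level 0.015), with Hadhb, a subunit of the mitochondrial trifunctional protein, at -0.36 (adjusted p = 0.833).

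Lists of division genes and of cell type markers were set beside the lipid genes. Of 10 proliferation genes 0 passed and the median log2 fold change was -0.09 (relative to level 0.06), with Ccnb1, a mitotic cyclin, at -0.37 (adjusted p = 0.795). The 12 germinal centre B cell markers had a median of -0.18 (relative to level -0.02, with 6 of 12 below it), and 0 passed, with sums of 11850 to 13230 CPM in DAF-TM and 12970 to 15320 CPM in control cells. Of these markers 11 of 12 had log2 fold changes below 0. Both DAF-TM libraries were below every control library for 5 of 12 and above for 0. Among all genes tested, 9.02% were lower and 11.3% higher in that way. Of 10 natural killer cell markers 8 were called higher (edgeR adjusted p under 0.05), against 0.373% of all genes tested. Their median log2 fold change was 1.53. Both DAF-TM libraries were above every control library for 9 of the 10, against 11.3% of all genes tested. The list summed to 137 and 81.3 CPM in DAF-TM cells, against 36.0 to 52.2 CPM in control cells. Those called higher were 4 of 12 macrophage and monocyte, 2 of 10 T cell, 1 of 8 dendritic cell and 1 of 6 plasma cell markers. In these lists 0 markers were called lower. The log2 fold change was below 0 for 2 of 12 macrophage and monocyte, 1 of 10 T cell, 1 of 8 dendritic cell and 1 of 6 plasma cell markers. The median log2 fold change was 1.03 for macrophage and monocyte markers, with 8 of 12 higher in both DAF-TM libraries than in every control library. It was 0.90 for T cell markers, with 8 of 10 higher in that way, against 11.3% of all genes tested. It was 0.54 for dendritic cell markers and 0.39 for plasma cell markers. The sums, which a few abundant genes can carry, overlapped between the groups for macrophage (725 to 986 CPM in DAF-TM and 762 to 860 CPM in control cells), T cell (268 to 281 CPM in DAF-TM and 278 to 309 CPM in control cells) and plasma cell genes (2810 to 3840 CPM in DAF-TM and 2843 to 4779 CPM in control cells). Dendritic cell markers summed to 92.0 to 108 CPM in DAF-TM and 85.7 to 90.9 CPM in control cells. Of 8 neutrophil markers tested 0 passed (median -1.66), with sums of 22.1 to 57.9 CPM in DAF-TM and 75.8 to 251 CPM in control cells. Of 6 erythroid and platelet markers tested 0 passed, with sums of 23.9 to 31.9 CPM in DAF-TM and 21.6 to 35.6 CPM in control cells and with Hba-a1 and Hba-a2 at 0 counts in every library. The part of these other cells in the lipid gene values was not tested, and in bulk RNA fewer cells of a type and less RNA per cell cannot be told apart.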

How the data were processed

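RNA was measured in sorted germinal centre B cells by SMART-Seq v4, per the labels' protocols, with single-end reads. The deposited values are raw counts for gene symbols, aligned to mm10 per the file headers. The submitters' processing notes name the tools bcl2fastq, HISAT2 and featureCounts. For annotation, strand setting and shared reads nothing is given in the sources used here. The kit does not mark strand, and exons of 12 members overlap those of another GENCODE M21 gene, most in Fdps (26.7% of exon bases, with Gm43738) and Fdft1 (18.3%, with Ctsb), so their counts are uncertain.

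Genes were tested with edgeR 4.0.16 (R 4.3.3, limma 3.58.1): TMM factors, filterByExpr by group, robust glmQLFit and two-sided glmQLFTest, Benjamini-Hochberg over 18767 genes. Intervals are 95% and come from this fit. Genes of similar level shared a bin of mean level (50 bins) with a member. Library medians used log2(CPM + 0.5). The procedure was tested on simulated data with known fold changes, where 15 of 162 calls were false. Members, lists and tests were chosen with earlier results of these data known. All 33 members are described. Values in every library are given for the 3 of lowest p per group and for a fixed set of key genes, with Acat2, Cyp51 and Abca1 added after their values were seen. In the other lipid lists and the proliferation list the gene of lowest p is named, with Abcg1 added after its values were seen. Marker lists are given as counts, medians and sums. Acsl3 and Acsl4 tied. Motifs were chosen for known factors of the pathway. In 27 rows the symbol had become a date, with at most 0.266% of counts. They stayed in the library sizes. Of 199 list entries 198 were matched, leaving Ly6g without a row.

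The alternatives tried were upper-quartile and RLE factors, no filter, at least 1 CPM in 3 libraries, DESeq2 1.42.0, limma-voom, a replicate block, each library left out, and 20 level bins.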

Additional observations from a re-analysis of the deposited data

How the results depend on the processing

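Of the 33 genes 0 passed under any of the 12 alternatives to the main fit. The numbers shared by the replicates do not pair the libraries by any label. Same-numbered libraries deviated with correlations of -0.128 and -0.254. DAF-TM library 1 with control library 2 gave 0.254, and DAF-TM library 2 with control library 1 gave 0.128. The 2 DAF-TM libraries deviate from their mean as mirror images, so the latter values are the former with the sign turned. The correlations therefore cannot settle whether the libraries were paired. With the replicate block 61 genes passed over the whole table in place of 77. The block gave 7 sterol synthesis genes at an unadjusted p under 0.05, as did the main fit. Control library 3 shared its number with no DAF-TM library in use, so the block fitted it exactly and it dropped out of the comparison. The block also left fewer residual degrees of freedom than the main fit. Leaving out control library 3 gave 7 as well, so the block is not a check on the full set of libraries. The count over the whole table was 32 with DESeq2, 49 with limma-voom and 39 with upper-quartile factors, and it ran from 14 to 118 when a library was left out. The cause was not tested. Upper-quartile factors moved the median of all genes to 0.103, against 0.028 with TMM, and the sterol synthesis median to -0.155, or -0.185 relative to genes of similar level.

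The sterol synthesis median ran from -0.395 without DAF-TM library 1 to -0.164 without DAF-TM library 2, the sensing median from -0.419 to -0.059 and the fatty acid median from -0.301 to 0.054, also at these libraries. The fatty acid median relative to genes of similar level ran from -0.178 to 0.099, lowest without control library 2, where it lay below that of sterol synthesis (-0.121). That of sterol synthesis ran from -0.265 to -0.121, and that of sensing from -0.213 to 0.013, and with the replicate block the last was 0.011. Of 396 values of single genes under alternatives 360 kept their sign, and 36 turned, 27 of them with a library left out. Over the fits that left out a library these 17 genes ran as follows: Acaca (-0.006 to 0.191), Acly (-0.301 to 0.218), Acss2 (-0.078 to 0.162), Dhcr7 (-0.240 to 0.057), Ebp (-0.123 to 0.172), Fads1 (-0.414 to 0.264), Fasn (-0.342 to 0.054), Fdps (-0.431 to 0.008), Insig2 (-0.225 to 0.049), Lss (-0.584 to 0.139), Mvd (-0.052 to 0.036), Nsdhl (-0.286 to 0.012), Pmvk (-0.170 to 0.213), Scd1 (-0.355 to 0.083), Scd2 (-0.846 to 0.105), Srebf1 (-0.463 to 0.031), Tm7sf2 (-0.195 to 0.055).

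The 9 other turns were near 0: with the replicate block Acly 0.029, Ebp -0.042, Pmvk -0.09 and Tm7sf2 0.04, with upper-quartile factors Acly 0.039, Fads1 0.022 and Mvd 0.069, and Acss2 -0.012 with RLE factors and with DESeq2. Depth was lowest for Elovl6, with 83 counts in control library 3.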
